A study of Mus musculus with 8 samples.

Results

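Semaphorins, ephrins, Slits and netrins are guidance ligands that were first known for steering growing axons, and the genes described here are these ligands together with their plexin, neuropilin, Eph, Robo and Unc5 receptors. They were taken by gene symbol as all listed members of these families, which gave 68 of the 24346 genes in the data. The study grew adipose-derived stem cells (ADSCs) of mice in 2 ways and sequenced their total RNA after removal of ribosomal RNA. The 2D cultures were conventional ones, and the 3D cultures were organoids grown in Matrigel, a basement membrane gel. The media differed too. The paper grew organoids in 3D media with or without Wnt3a- and R-Spondin1-conditioned medium, beside a control of serum and conventional 2D medium. Its text does not say which 3D medium the sequenced cultures had. Effects of medium and of gel cannot be told apart here. All cultures were primary cells from gonadal adipose tissue of wild-type (WT) male BALB/c mice aged 12 weeks. Each culture is represented by 4 libraries, those of mice 2, 3, 4 and 5 in 2D and those of mice 1, 4, 5 and 7 in 3D. Mice 4 and 5 were thus sequenced in both. No read counts were used, and the depth inferred from the spacing of low values was 16.4 M to 17.4 M fragments in 2D and 14.5 M to 15.9 M in 3D.

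Guidance ligands bind receptors on neighbouring cells and change the cytoskeleton and adhesion of the cell that carries the receptor. Class 3 semaphorins are secreted and mostly act through neuropilins paired with plexins, whereas most other semaphorins stay on the membrane and bind plexins directly. Ephrins are membrane-bound and signal in both directions with Eph receptor kinases, Slits act through Robo receptors, and netrins act through Dcc, neogenin and Unc5 receptors. In epithelial and stromal tissues the same families are known for keeping cell populations apart and for shaping tubes, vessels and nerve supply.

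The sample titles name adipose stem cells, and the libraries were first checked against stromal markers. The summed level of 12 stromal markers was 3129, 2116, 2098 and 4530 normalised FPKM (fragments per kilobase and M mapped fragments, quantile normalised) in the 2D libraries. In the 3D libraries it was 8.71, 4.78, 5.44 and 8.15. Here and below, 2D values are given in the order of mice 2, 3, 4 and 5 and 3D values in the order of mice 1, 4, 5 and 7. Of these stromal markers 11 fell in 3D, and Col1a2, the most abundant by mean, was under 0.0255 normalised FPKM or at that value in each 3D library. A list of 14 epithelial markers moved the other way. Its sum was 32, 177, 694 and 32.1 in 2D and 2750, 3153, 3218 and 2937 in 3D, with 13 of the 14 genes higher in 3D. In the 2D libraries of mice 3 and 4 nearly all of this sum was keratin RNA. Krt8 was at 26.8 and 261 there, Krt18 at 114 and 256, Krt19 at 31.6 and 109 and Krt7 at 3.02 and 67.3. Cdh1, the highest of the other markers in these libraries, was at 0.379 and 0.716, and Epcam was at 0 in both. Krt8 was the most abundant by mean over all libraries, though Krt18 was above it in the 2D mean and in the 3D libraries of mice 4 and 5. The 3D libraries labelled as adipose stem cells therefore lacked most of the stromal marker RNA of the 2D libraries. In bulk samples, fewer cells of a type and less RNA per cell cannot be told apart, and the part of these marker shifts in the results below was not tested.

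The 2D libraries also differed among themselves. Of 8 mesothelial markers, Msln was the most abundant by mean and Muc16 was at 0 in every library. Their summed level was 1.99, 854, 2148 and 0.569 in 2D and 2.58, 34.0, 5.84 and 6.24 in 3D. The 2D libraries of mice 3 and 4 thus held mesothelial marker RNA that those of mice 2 and 5 nearly lacked, and none of the 7 mesothelial markers tested passed the test between cultures. Fits without each pair of these 2D libraries were chosen after seeing the data and are given below beside some of the genes. Epididymal markers (8 genes, 3 of them, Adam7, Lcn5 and Lcn9, at 0 throughout) summed to 0.698, 0.290, 0.432 and 0.943 in 2D and to 4.46, 0, 0.537 and 0.106 in 3D. Crisp1 was the most abundant by mean, with 3.59 in the 3D library of mouse 1, whereas Rnase10 led in each 2D library. Endothelial markers (5 genes) summed to 1.26, 4.34, 6.79 and 1.07 in 2D and to 0.0480, 0.0489, 0.202 and 0.108 in 3D, with none called. Kdr was the highest of these by mean, but it led only in the 2D libraries of mice 3 and 4, at 3.92 and 6.34. Macrophage markers (5 genes, led by Cd68) reached 3.15, 3.32, 4.57 and 1.52 in 2D and 6.25, 42.3, 17.5 and 12.2 in 3D, with Cd68 alone called higher. Csf1r overlapped between the cultures, and Adgre1, Ptprc and Itgam were under 1 normalised FPKM in every library.

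A gene was called where limma gave an adjusted p below 0.05 over the 18862 genes above 0 in some library. All 68 guidance genes were among those tested, and 33 were called, 17 higher and 16 lower in 3D. This was 48.5% of the guidance genes, beside 41.5% of all genes tested, of which 21.2% were higher and 20.3% lower. The 2D and 3D libraries did not overlap for 34 guidance genes (50%), beside 42.5% of all genes. These shares lie near the background and are not a result about the families as such. The median log2 fold change of the guidance genes was -0.01, beside 0.00 for all genes, and the median absolute log2 fold change was 1.00, beside 0.38. Fold changes are on the log2(normalised FPKM + 1) scale, which understates the change of low genes. With genes averaging at least 1 normalised FPKM, 28 of 43 guidance genes (65.1%) were called, beside 53.2% of 12583 genes. Ligands and receptors were split differently, with 12 of 35 ligands higher and 7 lower, against 5 of 33 receptors higher and 9 lower, a difference that was not tested.

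**Figure D1:**
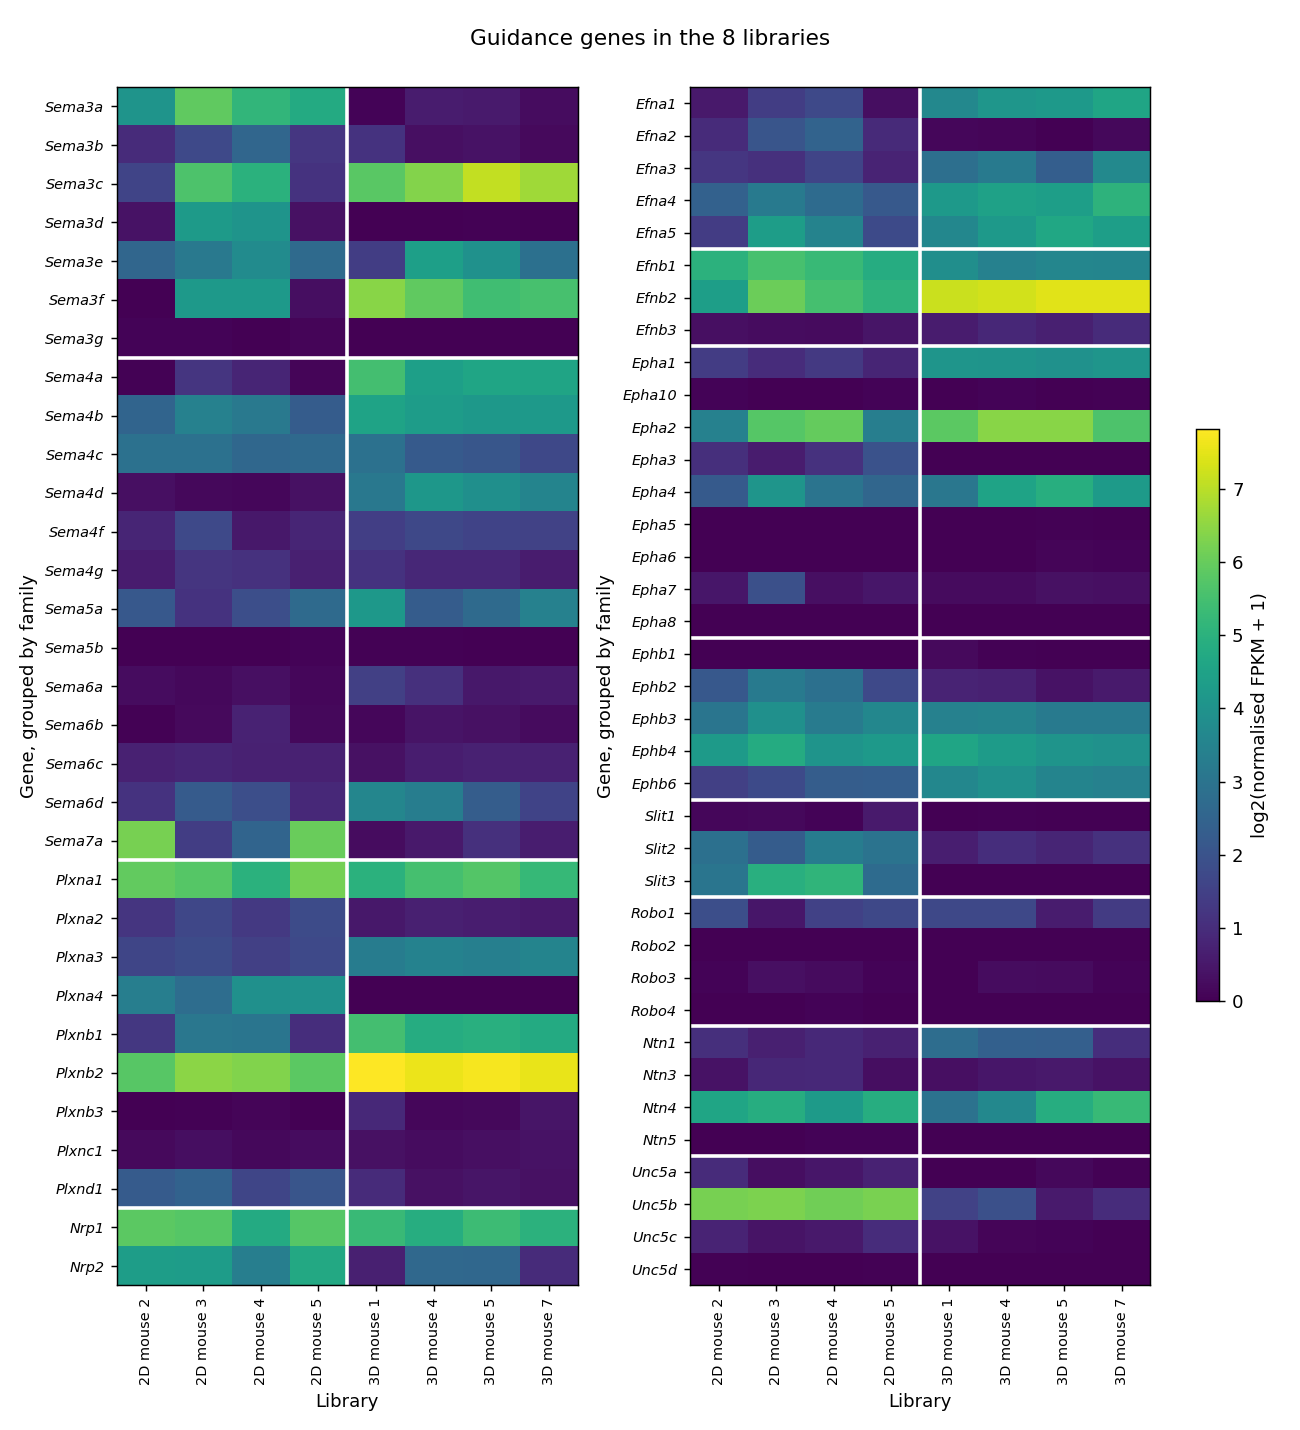
Level of each of the 68 guidance genes in the 8 libraries, as log2(normalised FPKM + 1), with families set apart by white lines and 2D libraries to the left of 3D libraries in each panel. Unc5b, Sema3a and Slit3 are bright in 2D and dark in 3D, Sema4a and Epha1 in 3D, and Sema3c, Sema3d, Sema3f and Sema7a differ between 2D libraries.

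Low genes were many in both cultures. Of the 68 guidance genes, 21 were under 1 normalised FPKM in every library, 3 of them called (Efnb3, Unc5a and Unc5c), and 33 reached 10 or more in at least 1 library. A group of 7 (Epha5, Epha8, Epha10, Ntn5, Robo2, Sema5b and Unc5d) stayed at or under the level of 3 fragments in all 8 libraries, where no difference was detectable at this depth. By mean level, the 5 most abundant members in 2D were Unc5b, Plxnb2, Plxna1, Nrp1 and Efnb2, and in 3D they were Plxnb2, Efnb2, Sema3c, Epha2 and Sema3f. Ephb2, Plxna2, Plxna4, Plxnd1, Sema3a and Slit3 were at 1 or more in each 2D library and under 1 in each 3D library, and the reverse held for Sema4d alone.

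Among the secreted ligands, the 7 class 3 semaphorins exchanged their leading genes. Sema3a and Sema3b fell in 3D, Sema3c and Sema3f rose, and 3 members were not called. The share called was 57.1%, beside 41.5% of all genes, a difference that was not tested. Sema3a, a repellent that acts through Nrp1 and A-type plexins, measured 15.6, 58.9, 34.3 and 26.4 normalised FPKM in 2D and 0.0469, 0.513, 0.470 and 0.198 in 3D. The cultures did not overlap, and even the lowest 2D library was far above the highest 3D library. The log2 level fell by 4.60 (SE 0.37, limma adjusted p = 6.41e-05). Sema3c, which binds both neuropilins, stood at 2.02, 48.4, 31.2 and 1.23 in 2D and at 55, 81.8, 137 and 102 in 3D. All 3D libraries were above all 2D libraries, but the 2D libraries of mice 3 and 4 were far closer to them than those of mice 2 and 5. Its log2 fold change was 3.15 (SE 1.04, limma adjusted p = 0.0438). Sema3f, the ligand with a preference for Nrp2, gave 0, 17.2, 17.8 and 0.224 in 2D and 85, 59, 42 and 45.9 in 3D. It was listed at 0 in the 2D library of mouse 2, and the cultures did not overlap. The log2 fold change of Sema3f was 3.65 (SE 1.06, limma adjusted p = 0.0265).

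Calls of Sema3c and Sema3f were lost in several fits. Without any one of the 2D libraries of mice 2 and 5 or the 3D libraries of mice 1, 4, 5 and 7, the limma adjusted p of Sema3c lay between 0.0601 and 0.104, at log2 fold changes of 2.378 to 3.425. The adjusted p was 0.0673 with the deposited values (log2 fold change 2.944), 0.0718 with median scaling (2.884) and 0.0529 without an intensity trend (3.149). For Sema3f it lay between 0.0522 and 0.0639 without the 2D library of mouse 2 or 5 or the 3D library of mouse 1, 4 or 7, at log2 fold changes of 2.882 to 3.768. Without the 2D libraries of both mice 3 and 4, the log2 fold change was 5.05 for Sema3c (adjusted p = 0.000304) and 5.64 for Sema3f (adjusted p = 9.13e-05), and without those of mice 2 and 5 it was 1.12 (adjusted p = 0.0662) and 1.54 (adjusted p = 0.00969). Sema3d showed the same separation of the 2D libraries. It measured 0.304, 18, 15.7 and 0.267 in 2D and 0.00537, 0, 0.0334 and 0.0181 in 3D, where all libraries were at or under 3 fragments. Its groups did not overlap, yet it was not called (limma adjusted p = 0.104). It was called lower without the 2D library of mouse 5 (adjusted p = 0.0472), without the 2D libraries of mice 3 and 4 (log2 fold change -0.347, adjusted p = 0.000500), without those of mice 2 and 5 (-4.11, adjusted p = 2.78e-05) and with a pseudocount of 0.1 (adjusted p = 0.0282). Sema3e overlapped, at 4.97 to 12.8 in 2D and 1.68 to 20.4 in 3D. Sema3b, whose libraries overlapped, fell by 1.11 (limma adjusted p = 0.0465). Its call was lost with the deposited values, with median scaling, without an intensity trend and without the 2D library of mouse 3, 4 or 5 or the 3D library of mouse 4, 5 or 7 (adjusted p up to 0.110 without a library). Its log2 fold change was -0.859 with the deposited values and -0.892 with median scaling, and it ranged from -1.345 to -0.798 over all fits without a single library. For Sema3b the log2 fold change was -0.590 (adjusted p = 0.160) without the 2D libraries of mice 3 and 4 and -1.66 (adjusted p = 0.0194) without those of mice 2 and 5. Sema3g was under 0.0799 or at that value in all libraries.

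Sema3a made up 65.2%, 38.5%, 29.4% and 75.2% of the summed class 3 semaphorin level in the 2D libraries. In 3D its share was 0.0328%, 0.317%, 0.242% and 0.128%. In 2D, Sema3c made up 8.46%, 31.65%, 26.7% and 3.49% and Sema3f 0%, 11.3%, 15.3% and 0.638%, so that Sema3c was close behind Sema3a in mice 3 and 4. Sema3c and Sema3f led in 3D, with Sema3c at 38.5%, 50.5%, 70.5% and 66.0% and Sema3f at 59.5%, 36.4%, 21.6% and 29.6%.

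**Figure D2:**
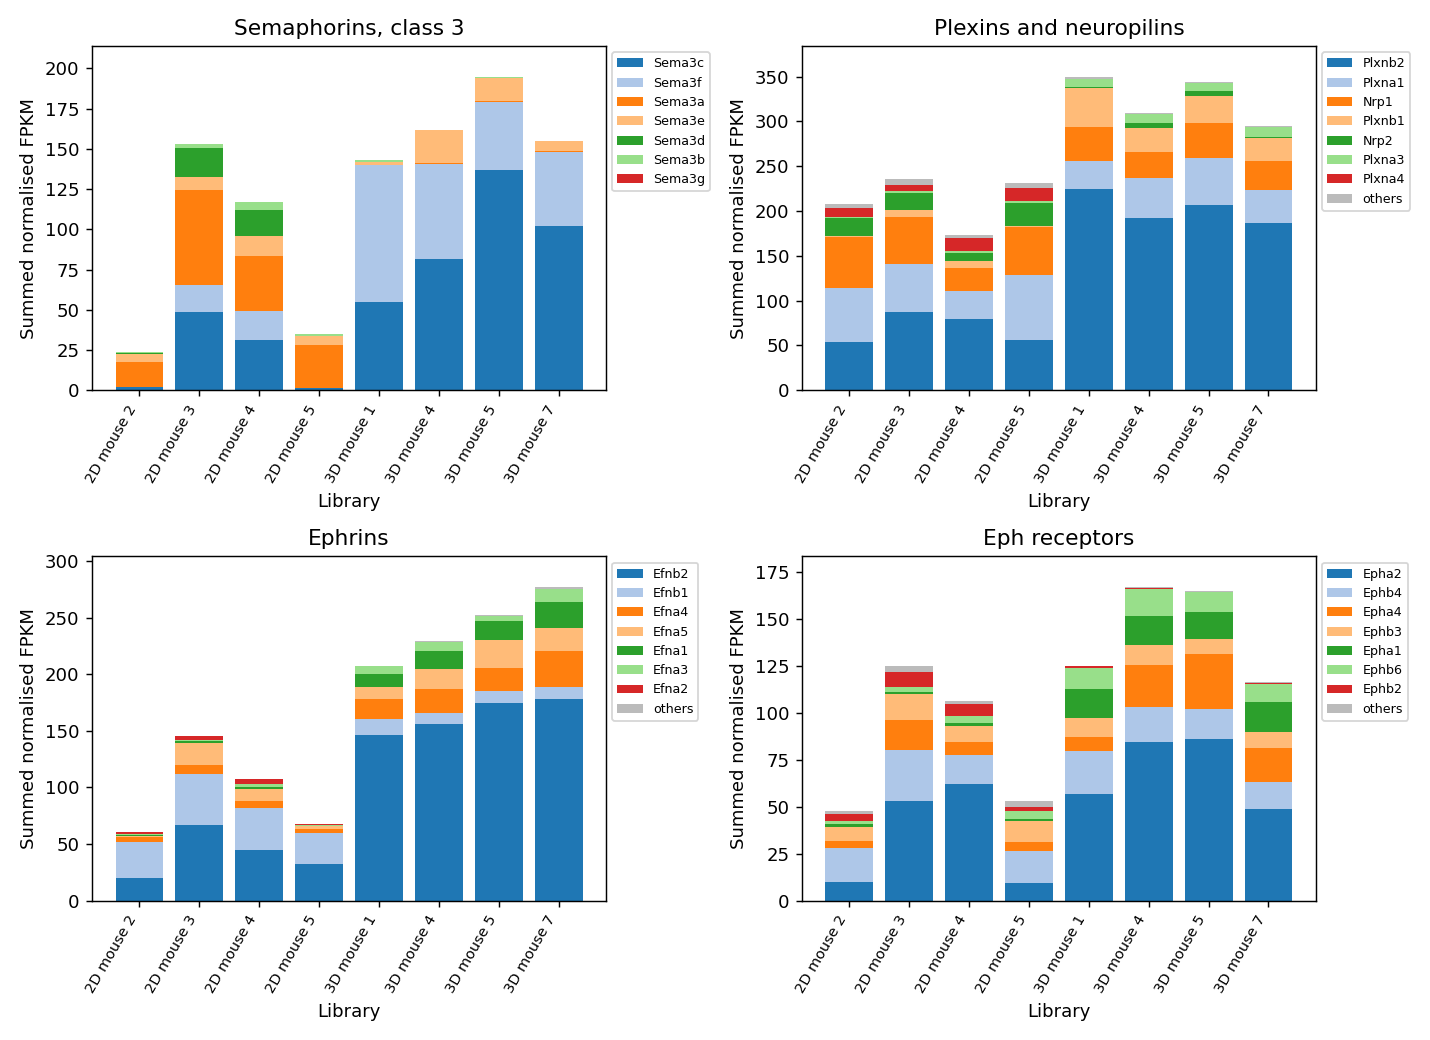
Summed normalised FPKM of class 3 semaphorins, plexins with neuropilins, ephrins and Eph receptors in each library, with each colour a gene and the bars starting at 0. Sema3c and Sema3f make up most class 3 semaphorin RNA in 3D, and Plxnb2 and Efnb2 lead their families there.

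Of the 13 semaphorins of classes 4 to 7, 4 rose and 1 fell, 38.5% called beside 41.5% of all genes. Sema4a, a membrane semaphorin that binds plexins of the B and D types, was near 0 in 2D at 0.0348, 1.32, 0.760 and 0.0669 normalised FPKM and reached 43.7, 20.2, 23.3 and 22.5 in 3D. Its 3D library of mouse 1 was the highest, and no 2D library came near the lowest 3D value. The log2 fold change was 4.22 (SE 0.35, limma adjusted p = 6.79e-05). Sema4d, the ligand of Plxnb1, measured 0.251, 0.116, 0.110 and 0.273 in 2D and 7.81, 16.6, 13.8 and 10.6 in 3D. The 4 libraries of each culture kept together, and the log2 fold change was 3.43 (SE 0.23, limma adjusted p = 2.43e-05). Sema4b, another membrane semaphorin, rose from 3.83 to 9.85 to 17.1 to 22.2 (log2 fold change 1.47, SE 0.26, limma adjusted p = 0.00293, and 0.974 without the 2D libraries of mice 2 and 5), and Sema6a, at 0.109 to 0.259 in 2D and 0.424 to 1.78 in 3D, also rose (log2 fold change 0.68, limma adjusted p = 0.0335). The Sema6a call was lost without any one 2D library or the 3D library of mouse 4 (adjusted p up to 0.0822). Over all fits without a single library its log2 fold change ranged from 0.473 to 0.802. The Sema6a call was also lost without the 2D libraries of mice 3 and 4 (log2 fold change 0.719, adjusted p = 0.113) or of mice 2 and 5 (0.697, adjusted p = 0.141). Sema7a, which is anchored to the membrane by a lipid and binds integrins and Plxnc1, ran against the others at 73.5, 1.69, 4.69 and 64.2 in 2D and 0.191, 0.444, 1.12 and 0.537 in 3D. Its 2D libraries of mice 2 and 5 were high and those of mice 3 and 4 low, the opposite of Sema3c, Sema3d and Sema3f, though the cultures did not overlap. Sema7a fell by 3.42 on the log2 scale (SE 1.09, limma adjusted p = 0.0383). That call was lost without the 2D library of mouse 2 or 5 or the 3D library of mouse 1, 4, 5 or 7, with adjusted p between 0.0686 and 0.0859 and log2 fold changes of -3.593 to -2.679. Without the 2D libraries of mice 3 and 4 the fall was -5.45 (adjusted p = 5.85e-05), and without those of mice 2 and 5 it was -1.36 (adjusted p = 0.0376).

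**Figure D3:**
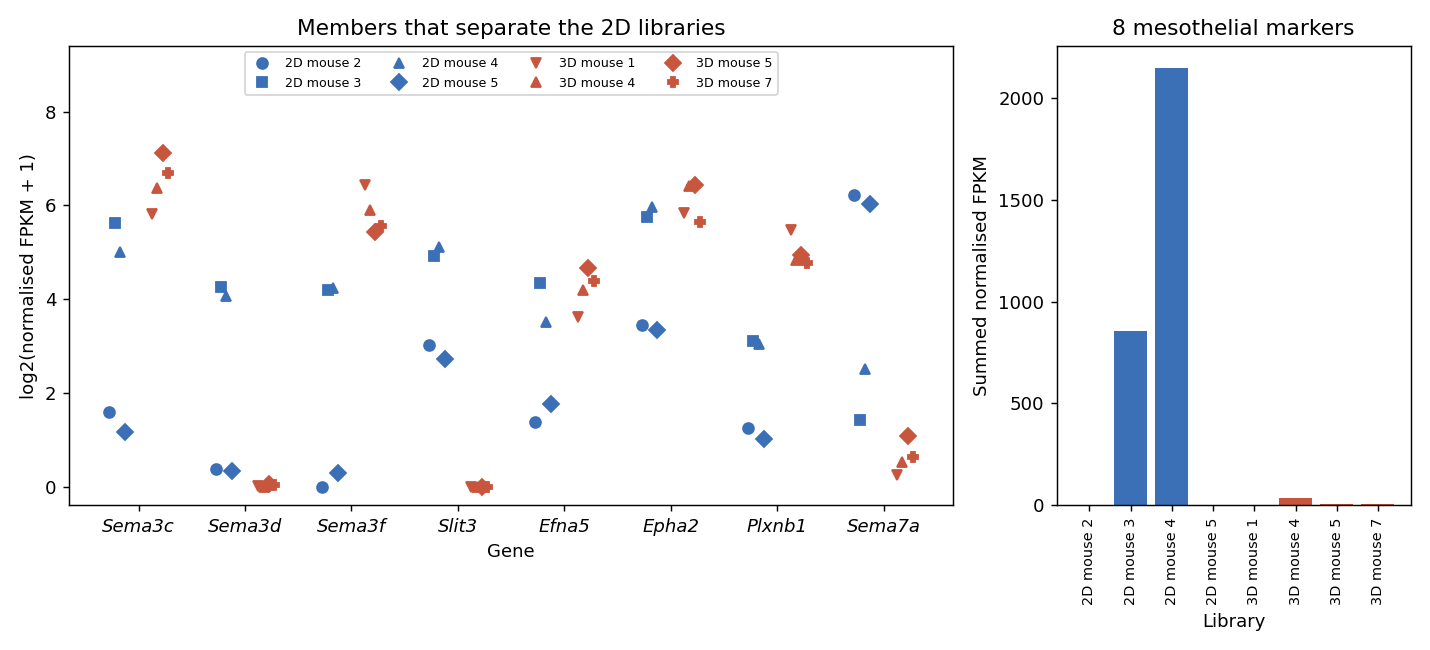
Left, log2(normalised FPKM + 1) of 8 guidance genes chosen after their values were seen, with a point for each library, 2D in blue and 3D in red, and marker shape by mouse. Right, summed normalised FPKM of 8 mesothelial markers per library, 854 and 2148 in the 2D libraries of mice 3 and 4 and at most 34.0 elsewhere.

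Plexins, the semaphorin receptors, numbered 9, of which 3 rose and 3 fell, beside 21.2% higher and 20.3% lower among all genes. Plxnb2, the most abundant by mean though under Plxna1 in the 2D libraries of mice 2 and 5, carried 53.8, 87.2, 79.2 and 56.4 normalised FPKM in 2D and 225, 192, 207 and 187 in 3D. No 3D library came near the 2D range. Plxnb2 gave a log2 fold change of 1.57 (SE 0.17, limma adjusted p = 0.000262), which was 1.02 with the deposited values (adjusted p = 0.000869) and 0.949 with median scaling (adjusted p = 0.000938). Plxnb1, the receptor of Sema4d, measured 1.38, 7.55, 7.28 and 1.03 in 2D and 43.5, 27.5, 29.7 and 26.4 in 3D, with 2D values again higher for mice 3 and 4. Its log2 fold change was 2.90 (SE 0.52, limma adjusted p = 0.00322), so that Sema4d and its receptor both rose. Leaving out the 2D libraries of mice 3 and 4 gave Plxnb1 3.83 (adjusted p = 0.000125), and leaving out those of mice 2 and 5 gave 1.85 (adjusted p = 0.00176). Plxna3, a co-receptor of class 3 semaphorins, moved from 2.08, 2.45, 1.82 and 2.30 to 8.80, 10.02, 9.38 and 10.6 with narrow spread in both cultures (log2 fold change 1.76, SE 0.13, limma adjusted p = 3.86e-05).

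Plxna4, which also serves class 3 semaphorins, went the other way. It measured 9.12, 5.88, 14.3 and 14.6 normalised FPKM in 2D and 0.00189, 0.00738, 0.0130 and 0 in 3D, where each library was at or under 3 fragments. Plxna4 fell by 3.50 on the log2 scale (SE 0.27, limma adjusted p = 5.28e-05). Plxnd1, a receptor of Sema3e, showed 3.73, 4.45, 2.12 and 3.15 in 2D and 0.930, 0.269, 0.360 and 0.270 in 3D, and the 3D library of mouse 1 stood above the other 3D libraries but under each 2D library. Plxnd1 fell by 1.57 (SE 0.22, limma adjusted p = 0.000947) and Plxna2 fell by 0.90 (SE 0.15, limma adjusted p = 0.00233). Plxna1, at 31.1 to 72.1 in 2D and 30.6 to 51.7 in 3D, overlapped and was not called (log2 fold change -0.36, limma adjusted p = 0.332). Plxna1 was called lower without the 2D library of mouse 4 (log2 fold change -0.598, adjusted p = 0.0486), and its log2 fold change was -0.718 (adjusted p = 0.0835) with the deposited values and -0.787 (adjusted p = 0.0641) with median scaling.

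The neuropilins bind class 3 semaphorins and also VEGF. Nrp2 measured 19.4, 19.2, 9.20 and 25.6 normalised FPKM in 2D and 0.606, 5.25, 5.15 and 0.968 in 3D. The 3D libraries of mice 4 and 5 kept more of it than those of mice 1 and 7, and all were under the 2D libraries. It fell by 2.46 on the log2 scale (SE 0.54, limma adjusted p = 0.00811), with a log2 fold change of -2.05 (adjusted p = 0.0755) without the 2D libraries of mice 2 and 5. The Nrp2 log2 fold change was smaller with the mouse as a fixed block, at -1.41 (adjusted p = 0.263), and in mice 4 and 5 alone, at -1.42 (adjusted p = 0.160). Nrp1 measured 56.5, 53, 26.5 and 53.3 in 2D and 38.2, 28.1, 39.8 and 31.8 in 3D and overlapped, with the 2D library of mouse 4 under the lowest 3D value. It was not called (log2 fold change -0.40, limma adjusted p = 0.240), but without that library its log2 fold change was -0.65 (adjusted p = 0.00781). For Nrp1 it was -0.659 (adjusted p = 0.0186) without the 2D libraries of mice 3 and 4 and -0.122 (adjusted p = 0.761) without those of mice 2 and 5. It was -0.710 (adjusted p = 0.0693) with the deposited values and -0.779 (adjusted p = 0.0501) with median scaling.

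Ephrins, the ligands of Eph receptors, were called in 7 of 8 cases, where 41.5% of all genes were called. In the ephrin-A family, whose members are tethered to the membrane by a lipid anchor, Efna1, Efna3 and Efna4 rose, Efna2 fell and Efna5 was not called. Efna1 measured 0.442, 1.70, 2.30 and 0.214 normalised FPKM in 2D and 11.6, 16.2, 17.4 and 23.1 in 3D. The lowest 3D library was above the highest 2D library, with a log2 fold change of 3.15 (SE 0.37, limma adjusted p = 0.000396). Efna3 went from 1.34, 1.13, 2.01 and 0.721 to 6.25, 8.08, 4.06 and 11.9 (log2 fold change 1.85, SE 0.31, limma adjusted p = 0.00246). Efna4 had the highest mean of the ephrin-A genes in 3D, though it was under Efna5 in the 3D library of mouse 5. Efna4 went from 4.38, 8.36, 5.68 and 3.58 to 17.4, 21.2, 20.1 and 31.9 (log2 fold change 1.88, SE 0.26, limma adjusted p = 0.000979). Neither Efna3 nor Efna4 overlapped between the cultures. Efna2 measured 0.928, 3.19, 4.67 and 0.921 in 2D and 0.111, 0.0851, 0 and 0.132 in 3D, with all 3D libraries under 0.14 normalised FPKM, and fell by 1.50 on the log2 scale (SE 0.36, limma adjusted p = 0.0116). Its log2 fold change was -0.847 (adjusted p = 0.000295) without the 2D libraries of mice 3 and 4 and -2.22 (adjusted p = 0.000262) without those of mice 2 and 5. Efna5 overlapped, at 1.60, 19.3, 10.4 and 2.39 in 2D and 11.2, 17.4, 24.3 and 19.9 in 3D (limma adjusted p = 0.115). Efna5 had a log2 fold change of 2.62 (adjusted p = 0.00168) without the 2D libraries of mice 3 and 4, but of 0.273 (adjusted p = 0.588) without those of mice 2 and 5. Without the 2D library of mouse 3 alone, Efna5 was called higher (adjusted p = 0.0252).

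Efna1, Efna3 and Efna4, the ephrin-A genes that rose, lie next to each other on chromosome 3 with no protein-coding gene between them. In GRCm38 they occupy chr3:89271733-89281142, chr3:89313899-89322965 and chr3:89333390-89338028, all on the minus strand, with gaps of 32.8 and 10.4 kb. Other neighbours, some with protein-coding genes between them, were not called together in 1 direction. On chromosome 5, Sema3d and Sema3a were both lower without overlap, but Sema3d was not called and Sema3e overlapped. On chromosome 9, Sema3b fell and Sema3f rose. Ephb2 and Epha3 fell while their neighbours Epha8 and Epha6 were not called. Robo1 with Robo2, Robo4 with Robo3 and Ntn4 with Plxnc1 held no called gene. Because Efna1, Efna3 and Efna4 moved together, their promoters are printed (RefSeq, GRCm38.p6, minus strand, 250 bases before to 50 after the start). They are in lower case throughout since no motif searched matched.
Efna1, chr3:89280902-89281201: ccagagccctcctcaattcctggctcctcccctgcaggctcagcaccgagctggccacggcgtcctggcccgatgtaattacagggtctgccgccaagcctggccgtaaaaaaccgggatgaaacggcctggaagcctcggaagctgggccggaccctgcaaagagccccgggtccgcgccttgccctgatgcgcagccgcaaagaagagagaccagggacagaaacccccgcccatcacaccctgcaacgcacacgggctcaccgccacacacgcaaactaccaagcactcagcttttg
Efna1, chr3:89279596-89279895: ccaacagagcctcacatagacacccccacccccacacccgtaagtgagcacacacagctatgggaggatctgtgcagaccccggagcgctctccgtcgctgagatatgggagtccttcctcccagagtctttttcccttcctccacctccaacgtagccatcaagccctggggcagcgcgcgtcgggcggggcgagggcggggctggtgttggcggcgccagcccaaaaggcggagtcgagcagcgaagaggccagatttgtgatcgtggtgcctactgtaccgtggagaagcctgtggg
Efna3, chr3:89322890-89323189: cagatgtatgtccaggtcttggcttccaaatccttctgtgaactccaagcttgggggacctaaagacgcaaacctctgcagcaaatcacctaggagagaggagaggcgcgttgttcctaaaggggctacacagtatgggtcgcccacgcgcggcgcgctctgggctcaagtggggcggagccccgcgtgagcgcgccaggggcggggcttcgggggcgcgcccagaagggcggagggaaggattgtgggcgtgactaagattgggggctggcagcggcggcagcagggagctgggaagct
Efna3, chr3:89321719-89322018: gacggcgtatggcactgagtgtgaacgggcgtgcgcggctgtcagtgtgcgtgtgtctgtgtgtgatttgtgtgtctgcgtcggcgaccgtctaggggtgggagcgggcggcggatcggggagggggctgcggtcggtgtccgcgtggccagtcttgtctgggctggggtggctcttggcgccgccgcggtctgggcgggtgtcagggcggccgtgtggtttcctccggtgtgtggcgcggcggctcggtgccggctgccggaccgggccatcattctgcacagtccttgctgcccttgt
Efna4, chr3:89337979-89338278: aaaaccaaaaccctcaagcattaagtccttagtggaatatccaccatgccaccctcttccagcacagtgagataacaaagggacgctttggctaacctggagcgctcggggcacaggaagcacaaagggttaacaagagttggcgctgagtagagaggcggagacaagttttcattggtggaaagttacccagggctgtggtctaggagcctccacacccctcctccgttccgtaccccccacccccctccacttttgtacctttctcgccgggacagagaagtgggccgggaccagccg
Motifs were counted on both strands in the promoters of 59 matched members, namely the CAGGTG E-box bound by Zeb and Snail factors, the TEAD motif GGAATG, the AP-1 motif TGANTCA and the Grainyhead motif AACCNGGTT. None of the 5 printed promoters held a match. In the 22 promoters of 13 members that rose, CAGGTG was found in 3, GGAATG in 4, TGANTCA in 1 and AACCNGGTT in 0. In the 14 promoters of 14 members that fell these counts were 1, 2, 0 and 0, and of all 32851 promoters of that length 20.2%, 14.7%, 7.81% and 0.271% held them. A match is a description of letters, and its absence says only that they are not in this window. The printed promoters were picked after the motif matches had been seen, for their position and shared rise.

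Ephrin-B ligands cross the membrane and signal into their own cell. Efnb2 led by mean, though it was under Efnb1 in the 2D library of mouse 2. Efnb2 measured 19.8, 66.3, 44.6 and 32 normalised FPKM in 2D and 147, 156, 175 and 178 in 3D. The ranges were far apart, and the log2 fold change was 2.11 (SE 0.33, limma adjusted p = 0.00160). It was smaller with the deposited values, at 1.66 (adjusted p = 0.00438), and with median scaling, at 1.59 (adjusted p = 0.00478). Efnb1 fell from 31.6, 45.3, 37.5 and 27.6 to 13.7, 9.86, 11.1 and 10.8, without overlap, and by 1.55 on the log2 scale (SE 0.17, limma adjusted p = 0.000255). Efnb2 thereby went from 38.3%, 59.3%, 54.2% and 53.3% of the summed ephrin-B level in 2D to 91.2%, 93.6%, 93.7% and 93.8% in 3D. Efnb3, low throughout at 0.179 to 0.366 in 2D and 0.508 to 0.951 in 3D, rose by 0.45 (limma adjusted p = 0.00617), with an adjusted p of 0.0513 without the 2D libraries of mice 3 and 4 (log2 fold change 0.396).

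Of the 14 Eph receptors, 4 were called, beside 41.5% of all genes. Epha1, an Eph kinase of epithelial cells, measured 1.62, 0.989, 1.48 and 0.765 normalised FPKM in 2D and 15.8, 15.6, 14.5 and 16 in 3D. The 3D libraries lay close together and well above 2D, with a log2 fold change of 2.91 (SE 0.16, limma adjusted p = 9.06e-06). Epha3 had 1.09, 0.526, 1.15 and 2.90 in 2D and a value of 0 in each 3D library, and it fell by 1.18 on the log2 scale (SE 0.25, limma adjusted p = 0.00725). Epha2, the most abundant Eph receptor by mean though under Ephb4 in the 2D libraries of mice 2 and 5, overlapped at 9.93, 52.9, 61.8 and 9.09 in 2D and 56.5, 84.6, 86 and 48.7 in 3D. It was not called (limma adjusted p = 0.116), but it was called higher without the 2D library of mouse 4 (adjusted p = 0.045). Without the 2D libraries of mice 3 and 4 its log2 fold change was 2.64 (adjusted p = 0.000947), and without those of mice 2 and 5 it was 0.215 (adjusted p = 0.569). Of the EphB receptors, Ephb6, whose kinase domain is inactive, rose from 1.79, 2.40, 3.94 and 4.06 to 11.2, 14.3, 10.5 and 9.85 (log2 fold change 1.66, SE 0.23, limma adjusted p = 0.000949). Ephb2, a receptor of ephrin-B ligands, moved the other way from 3.48, 8.15, 6.36 and 2.34 to 0.720, 0.661, 0.304 and 0.475 and fell by 1.88 on the log2 scale (SE 0.32, limma adjusted p = 0.00255). Neither of these EphB genes overlapped between the cultures. Ephb4, the receptor of Efnb2, was at 15.4 to 27.0 in 2D and 14.6 to 23.1 in 3D (limma adjusted p = 0.707), Ephb3 at 7.22 to 14.3 and 8.15 to 10.4 (limma adjusted p = 0.628), and Ephb1 was listed at 0 in 2D and reached at most 0.143 in 3D.

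**Figure D4:**
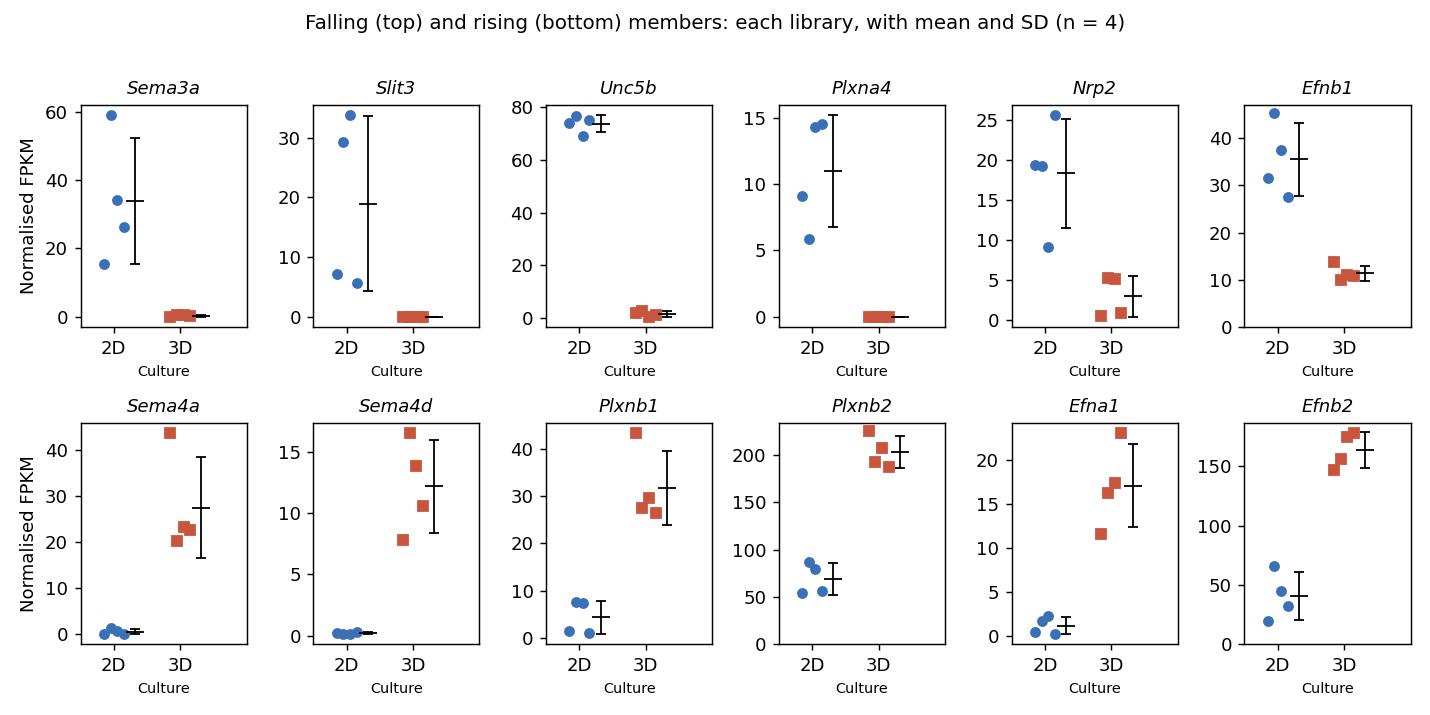
Normalised FPKM of 12 guidance genes in each library, 2D as blue circles and 3D as red squares, with the mean and SD of 4 libraries as black bars beside the points and an axis of its own for each gene. The top row holds genes that fell and the bottom row genes that rose, and all 12 were picked from called genes whose cultures did not overlap.

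Of the 3 Slits, secreted repellents, Slit2 and Slit3 fell in 3D. This was 66.7% called, beside 41.5% of all genes, a difference that was not tested. The Robo receptors were low in both cultures. Slit3 had 7.14, 29.3, 33.8 and 5.59 normalised FPKM in 2D and a value of 0 in each of the 4 3D libraries. The 2D libraries of mice 3 and 4 held several times more Slit3 than those of mice 2 and 5, and none was near 0. It fell by 3.95 on the log2 scale (SE 0.56, limma adjusted p = 0.00109), with log2 fold changes of -2.89 without the 2D libraries of mice 3 and 4 and -4.97 without those of mice 2 and 5. Slit2 went from 6.36, 3.84, 8.67 and 6.86 to 0.589, 1.03, 0.767 and 1.18 without overlap and fell by 1.94 (SE 0.23, limma adjusted p = 0.000476). Slit1 was low, at 0.0502 to 0.495 in 2D and 0 to 0.0335 in 3D, and was not called (limma adjusted p = 0.136), though its libraries did not overlap. Slit1 was called lower with a pseudocount of 0.1 (adjusted p = 0.0460) and without the 2D library of mouse 5 (adjusted p = 0.0353). Robo1, the most abundant Robo receptor, ranged from 0.383 to 2.68 in 2D and from 0.498 to 2.25 in 3D (limma adjusted p = 0.910). Robo2, Robo3 and Robo4 stayed under 0.25 normalised FPKM in each library and were not called.

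Netrins, laminin-related ligands, were mostly represented by Ntn4, a basement membrane protein. Ntn4 ranged from 18.2 to 28.4 in 2D and from 6.72 to 37.9 in 3D and was not called (limma adjusted p = 0.482). Ntn1 rose from 0.602 to 1.07 to 1.05 to 5.94 with overlapping libraries (log2 fold change 1.31, SE 0.36, limma adjusted p = 0.0214), a call lost without the 2D library of mouse 3 or 5 or the 3D library of mouse 4 or 5, with adjusted p between 0.0512 and 0.0559 and log2 fold changes of 1.235 to 1.271. For Ntn1 the adjusted p was 0.0998 without the 2D libraries of mice 3 and 4 (log2 fold change 1.274) and 0.0880 without those of mice 2 and 5 (1.36). Ntn3, whose exons overlap those of Tbc1d24 on the same strand so that its reads may be shared, was under 0.87 in each library and was called lower without the 2D libraries of mice 2 and 5 (log2 fold change -0.4925, adjusted p = 0.00974). Ntn5 was at or under 3 fragments throughout.

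Unc5 receptors respond to netrins, and Unc5b carried 97.8%, 99.3%, 98.8% and 97.8% of their summed level in 2D and 86.3%, 97.04%, 71.5% and 95.9% in 3D. It measured 73.9, 76.6, 69.2 and 75.2 normalised FPKM in 2D and 1.89, 2.74, 0.469 and 0.978 in 3D. The 2D libraries were within a narrow band and the 3D libraries all far under it, so Unc5b, the guidance gene with the highest mean in 2D, fell by 4.98 on the log2 scale (SE 0.27, limma adjusted p = 8.88e-06). Unc5a and Unc5c, both under 1 in each library, fell by 0.57 (limma adjusted p = 0.0125) and fell by 0.53 (limma adjusted p = 0.0158). The Unc5c call was lost with the deposited values (log2 fold change -0.357, adjusted p = 0.0514). It was also lost without the 2D libraries of mice 2 and 5 (-0.359, adjusted p = 0.0664), where the log2 fold change of Unc5a was -0.364. Unc5d was at or under 3 fragments throughout.

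**Figure D5:**
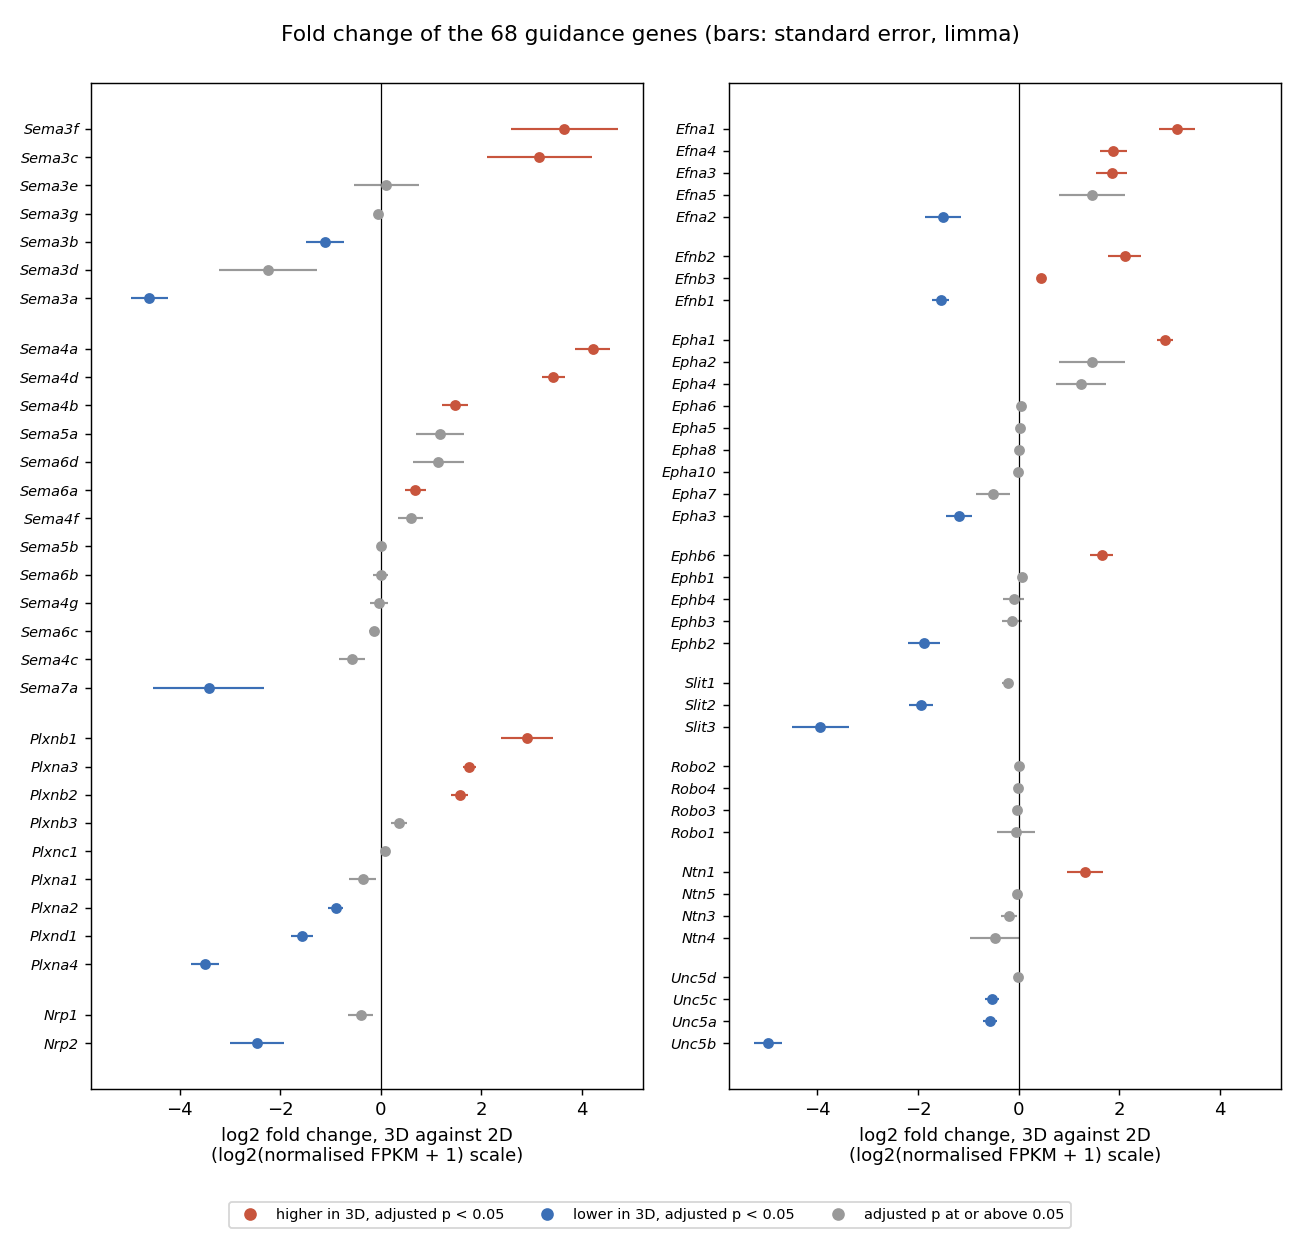
Log2 fold change, 3D against 2D, of the 68 guidance genes by family, on the log2(normalised FPKM + 1) scale, with points for the limma estimate and bars for its standard error. Red genes were called higher (17) and blue genes lower (16) at an adjusted p below 0.05, and grey genes (35) were not called.

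Further genes of these pathways were described from a list of 46 receptors, ligands and signalling proteins, of which 11 rose, 16 fell and 19 were not called. The share called was 58.7%, beside 41.5% of all genes tested, and the difference was not tested. Of the 46 genes, 39 averaged at least 1 FPKM as deposited. Among all genes averaging at least 1 normalised FPKM, 53.2% were called. Vav3, an exchange factor downstream of Eph receptors, rose by 4.10 on the log2 scale (limma adjusted p = 8.13e-05), with 3D libraries between 29.0 and 36.8 normalised FPKM and 2D libraries between 0.228 and 2.64. L1cam, a partner of Nrp1, rose by 3.94 (limma adjusted p = 0.000129), the Eph exchange factor Ngef by 2.24 (limma adjusted p = 0.000720) and the Unc5 ligand Flrt1 by 1.89 (limma adjusted p = 0.00207). Dpysl3, a mediator of semaphorin signals to the cytoskeleton, was between 58.7 and 129 in 2D and between 0 and 0.0315 in 3D, and it fell by 6.49 (limma adjusted p = 1.82e-06). Flrt2, another Unc5 ligand, fell by 4.82 (limma adjusted p = 5.03e-06), as Unc5b did. Flrt3 overlapped and was not called (log2 fold change 0.497, limma adjusted p = 0.496). Among plexin effectors, Mical2 fell by 4.73 (limma adjusted p = 8.15e-06) and Mical1 fell by 3.97 (limma adjusted p = 2.39e-05), whereas Mical3 rose by 0.552 (limma adjusted p = 0.00966) and the plexin-B effector Arhgef12 by 0.914 (limma adjusted p = 0.00251). Of the same list, Rnd1, Rnd3, Farp1 and Farp2 also fell, and Arhgef11 was not called. Neo1, another netrin receptor, fell by 1.16 (limma adjusted p = 0.00337), and Dcc was under 0.0237 or at that value in all libraries.

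With the mouse as a fixed block, which leaves 1 residual degree of freedom, limma called 0 guidance genes. All 33 called genes kept their direction there, and 22 had an unadjusted p below 0.05. With the mouse as a random effect, all 33 were called.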

How the data were processed

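RNA of 8 ADSC cultures was analysed, 4 of 2D and 4 of 3D cultures. The authors made directional libraries after ribosomal RNA depletion, trimmed the paired-end reads, mapped them with TopHat (mm10 in the submitters' processing notes) and computed the deposited FPKM values with Cufflinks. The annotation used was not given in the sources used here. The methods of the study name quantile normalisation, but the deposited values differ in upper quartile and maximum between libraries, so the values were quantile normalised here. Groups and mouse numbers come from the sample titles.

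Of 24346 genes, 5484 were at 0 in all libraries and 18862 were tested. Values were converted to log2(FPKM + 1) and fitted with limma 3.58.1 in R 4.3.3 (empirical Bayes, intensity trend, no covariates), with Benjamini-Hochberg adjustment over the genes tested. Since 1 fragment adds a fixed FPKM to a gene of known length, depth was read from the spacing of low values in 875 long genes (3000 nt or more, 1 annotated transcript, GENCODE M21). As the lowest level told from 0, 3 fragments on the shortest coding transcript were used, which covers counting error only.

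The titles number the mice, and mice 4 and 5 gave both cultures. Deviations of their 2D and 3D libraries from the culture means correlated at -0.0526 (mouse 4) and -0.113 (mouse 5) over 12577 genes. The pairs come from the same animal, so the mouse was also fitted as a block and as a random effect (correlation -0.0439). The other alternatives were the deposited values, median scaling, no intensity trend, a pseudocount of 0.1, genes averaging 1 FPKM or more, mice 4 and 5 only, and each library left out in turn. Fits without the 2D libraries of mice 3 and 4, or of mice 2 and 5, were chosen after seeing the data.

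Named in full were the 12 largest rises and the 12 largest falls among called guidance genes whose libraries did not overlap. Also named were the member of each family with the highest mean, the largest rise or the largest fall, the members of families of 5 or fewer genes, and the 4 largest rises and 4 largest falls of pathway partners. Other genes named, such as Sema3b, Sema3d, Sema3e, Sema3g, Sema4b, Sema6a, Plxna1, Plxna2, Neo1, Mical3 and Arhgef12, were chosen after their values were seen. Members and lists were chosen with earlier results of these data known. The promoters that are printed were also replaced during the work: other promoters, some picked because they held motif matches, had been considered and were dropped. Protein sequences were not used here. A further planned list of cell type markers is not reported here.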

Additional observations from a re-analysis of the deposited data

Results flagged for a closer look

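Among 52 groups of 4 libraries, 2 held a library far from the others, where chance flags about 1 in 20 groups. The 3D library of mouse 1 had 0.930 normalised FPKM of Plxnd1, against 0.269 to 0.360 for the rest of the 3D cultures, a gap of 0.834 of the range on the log2(normalised FPKM + 1) scale. For Nrp1, mouse 4 had 26.5 in 2D, against 53.0 to 56.5 for the rest of the 2D cultures, a gap of 0.915 of the range on that scale.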

How the results depend on the processing

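All 33 called guidance genes kept their direction in each alternative in which they were tested. Dropping single libraries gave 13 to 18 higher and 14 to 18 lower calls. Calls of Sema3b, Sema3c, Sema3f, Sema6a, Sema7a and Ntn1 were lost in some of these. The deposited values gave 19 higher and 14 lower, with Sema3b, Sema3c and Unc5c lost and Plxnc1, Sema4f and Sema5a gained. With mouse pairing as a fixed block (1 residual degree of freedom), limma called 0 genes in each direction among all genes, guidance genes and partners. The smallest adjusted p of a guidance gene was then 0.111, and 5216 of all genes had an unadjusted p below 0.05. With the mouse as a random effect the counts were 17 and 16. Mice 4 and 5 alone gave 1788 higher and 1432 lower of all genes, 11 and 6 guidance genes and 6 and 11 partners, with fewer libraries in the fit. Without the 2D libraries of mice 3 and 4 (chosen after seeing the data) 18 were higher and 19 lower, with 29 of the 33 still called, and without those of mice 2 and 5 it was 14 and 16, with 28. Only genes that were not called turned direction, and the cause was not tested. Ephb4 had log2 fold changes of 0.0572 with the block and 0.0585 in mice 4 and 5. Ephb3 had 0.00321 without the 2D libraries of mice 3 and 4, where Ntn3 had 0.0923 and Robo3 0.0692. Robo1 had 0.198 with deposited values, 0.154 with median scaling and 0.347 without the 2D libraries of mice 2 and 5, where Unc5d had 0.00752. Robo2 had -0.000624 with the block and -0.00125 in mice 4 and 5. Robo3 had 0.0874 with the block and 0.0872 in mice 4 and 5. Over the fits without a single library, log2 fold changes ranged from -0.227 to 0.0595 for Ephb4, -0.266 to 0.0260 for Ephb3, -0.366 to 0.189 for Robo1, -0.000357 to 0.00189 for Robo2 and -0.0774 to 0.0117 for Robo3. Also turning in some alternatives, over all of which they ranged, were Sema3e (-0.306 to 0.945), Plxna1 (-0.787 to 0.0311), Sema4g (-0.309 to 0.239), Sema6b (-0.198 to 0.178), Sema6c (-0.354 to 0.0722), Sema5b (-0.0235 to 0.0132) and Epha10 (-0.0438 to 0.0412), none of them called in the main fit.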
